A study of Mus musculus with 8 samples.

Results

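The iron and 2-oxoglutarate dependent dioxygenases are enzymes that bind ferrous iron, split molecular oxygen and turn 2-oxoglutarate into succinate and carbon dioxide while they hydroxylate or demethylate a second substrate. The 44 genes described here were chosen by function and matched by symbol, with the TET enzymes left out: 16 histone lysine demethylases, 5 other proteins with a JmjC domain, 7 prolyl hydroxylases of the HIF and OGFOD type, 9 ALKBH and FTO enzymes, 4 lysyl and aspartyl hydroxylases of the secretory pathway, and 3 hydroxylases of small molecules or transfer RNA. All 44 were found among the 55471 genes of the files, all had a count in at least 1 library, and 42 passed the filter on low counts, while Phf2 and Plod3 did not. The RNA came from embryonic day 4.5 mouse blastocysts and fills 8 libraries: 2 from embryos with both Isca2 alleles lost (Isca2 -/-, here KO), 3 from embryos homozygous for a serine in place of a glycine in ISCA2 (Isca2 G77S/G77S, here G77S) and 3 from wild type embryos (WT). Isca2 encodes a mitochondrial protein that helps to build iron-sulfur clusters, and the title of the series links it to iron and to the TET enzymes. All groups share hormone-stimulated Isca2+/- mothers mated with Isca2+/- fathers, per the labels, and embryo culture, although such matings name no G77S allele and the labels do not say which cross gave those embryos. The number of embryos per library, their litters and their sex are not in the labels, so each p-value reflects library-to-library spread only, part of which may be technical.

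These enzymes connect oxygen, iron and the tricarboxylic acid cycle to chromatin, RNA and protein modification. JmjC demethylases remove methyl groups from histone lysines, and EGLN enzymes mark the hypoxia-inducible factor (HIF) for destruction. FTO and some ALKBH enzymes strip methyl groups from nucleic acids, and PLOD enzymes hydroxylate collagen. In the blastocyst, the embryo's stage just before implantation, histone and DNA methylation patterns are being reset in trophectoderm, epiblast and primitive endoderm.

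Libraries held 10323965 to 23842619 estimated counts, and 3 counts in a library equal 0.139 to 0.298 CPM (counts scaled to a common library size, corrected here with TMM factors). Isca2 was at 4.84 and 6.20 CPM in KO, 89.1, 105 and 133 CPM in G77S, and 86.9, 173 and 154 CPM in WT, so both libraries labelled KO lay below all others. Fragments averaged 181.4 to 185.1 bases in G77S and 242.7 to 291.1 bases in KO and WT, from the deposited lengths, so genotype and library preparation cannot be told apart for G77S. Y-linked RNA summed to 0.07 CPM in G77S replicate 1, to 0.335 CPM in WT replicate 1, and to 215 to 418 CPM in the other 6. Marker sums ran from 27460 to 30630 CPM in KO, 7311 to 10940 CPM in G77S and 24980 to 28350 CPM in WT for 8 trophectoderm genes, all of them detected in each genotype. Most of that sum came from Fabp3, Krt18 and Krt8. Fabp3 stood at 17830 to 19660 CPM in KO, 3396 to 6206 CPM in G77S and 16940 to 20520 CPM in WT. It fell in G77S against WT (adjusted p = 0.00332, edgeR), as did Krt18 (0.0222). The lineage factor Elf5 was also called lower, at 0.07 to 0.954 CPM in G77S and 7.83 to 10.4 CPM in WT (0.0475). Eomes lay below WT in every mutant library. Its level was 12.6 and 9.54 CPM in KO, 16.9 to 21.3 CPM in G77S and 22.5 to 41.9 CPM in WT. It was not called (adjusted p = 0.155 in KO and 0.192 in G77S). The lineage factors Cdx2, Gata3 and Tfap2c were not called in G77S against WT (0.736, 0.963 and 0.788). In KO, Tfap2c lay below WT, at 19.1 and 17.5 CPM against 27.01 to 75.95 CPM, without a call (0.193). For Cdx2, Gata3 and Elf5, the KO and WT libraries overlapped. The sums ran from 10750 to 12400 CPM in KO, 4372 to 6883 CPM in G77S and 7742 to 14390 CPM in WT for 8 epiblast genes, of which Sox2 was at 0 in WT. Nearly all of it was Dppa5a, at 4218 to 6631 CPM in G77S and 7435 to 14150 CPM in WT (adjusted p = 0.0594). Nanog lay below WT in both mutant groups, at 27.4 and 53.4 CPM in KO, 66.9 to 176 CPM in G77S and 221 to 297 CPM in WT. It was not called (adjusted p = 0.0529 in KO and 0.107 in G77S). Pou5f1 went the other way and rose in G77S, at 26.7 to 52.9 CPM in G77S against 4.49 to 7.58 CPM in WT (0.0104). In KO it lay below WT, at 2.89 and 3.87 CPM (0.413). Tdgf1 stood at 120.5 and 158.3 CPM in KO, 44.2 to 87.1 CPM in G77S and 0.199 to 13.3 CPM in WT (0.155 and 0.101). Klf4 stood at 4.78 and 7.26 CPM in KO and 0 to 0.649 CPM in WT (0.205). Klf2, Sox2 and Fgf4 also lay above WT in both KO libraries, without a call. All 8 cumulus and granulosa markers were at 0 everywhere, and the blood and fibroblast markers summed to at most 0.952 CPM in a library. These are whole-blastocyst libraries, in which fewer cells of a type and less RNA per cell cannot be told apart.

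The promoters of Egln1, Egln3 and P4htm are shown because their genes belong to the oxygen-sensing branch: Egln1 is the most abundant EGLN gene here, Egln3 is a textbook HIF target at low level, and P4htm is the 1 member with no count in any WT library. They come from RefSeq (GRCm38.p6) and cover 250 bases before to 50 bases after the annotated start, 5′ to 3′ on the gene's strand. Capitals mark ACGTG or its reverse complement CACGT, the core of the hypoxia response element; the 2 forms overlap where CACGTG occurs. The windows are chr8:124949205-124949504 on the minus strand for Egln1, chr12:54203825-54204124 on the minus strand for Egln3, and chr9:108597563-108597862 on the minus strand for P4htm.
Egln1: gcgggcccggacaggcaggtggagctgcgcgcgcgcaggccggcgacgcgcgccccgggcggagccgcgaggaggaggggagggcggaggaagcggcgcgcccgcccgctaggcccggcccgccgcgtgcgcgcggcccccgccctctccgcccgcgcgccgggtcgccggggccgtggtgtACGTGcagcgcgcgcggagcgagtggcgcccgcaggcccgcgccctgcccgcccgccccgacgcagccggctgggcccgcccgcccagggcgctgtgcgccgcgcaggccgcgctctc
Egln3: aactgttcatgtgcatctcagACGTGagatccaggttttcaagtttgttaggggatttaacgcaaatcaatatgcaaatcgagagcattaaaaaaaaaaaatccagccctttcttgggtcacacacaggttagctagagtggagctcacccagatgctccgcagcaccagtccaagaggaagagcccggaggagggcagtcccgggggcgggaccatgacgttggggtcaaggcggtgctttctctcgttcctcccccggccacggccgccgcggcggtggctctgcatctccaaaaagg
P4htm: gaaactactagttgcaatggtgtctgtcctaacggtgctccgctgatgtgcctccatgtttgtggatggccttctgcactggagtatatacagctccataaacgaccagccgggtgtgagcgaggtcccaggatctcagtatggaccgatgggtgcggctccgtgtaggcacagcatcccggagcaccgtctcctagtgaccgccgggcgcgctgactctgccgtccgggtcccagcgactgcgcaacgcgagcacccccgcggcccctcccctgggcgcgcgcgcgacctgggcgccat
The Egln1 window holds 60 CG dinucleotides and 1 match, the Egln3 window 16 and 1, and the P4htm window 28 and 0. Of the 44 genes, 35 had an entry in the RefSeq table, with 45 promoters in all. The letters ACGTG occurred on either strand in 13 of these (28.9%), against 19.6% of 32851 mouse promoters, and the median number of CG dinucleotides was 20 against 7. No value for factor binding or promoter methylation was analysed here.

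Levels between genes are compared per transcript length, in the deposited TPM (a unit scaled for transcript length and library size). Summed over the 44 genes, RNA stood at 492 and 399 TPM in KO, 468, 553 and 505 TPM in G77S, and 439, 511 and 444 TPM in WT, with overlapping groups. In WT, 28 of the 44 genes averaged at least 1 TPM. The highest in WT was Phyh, the peroxisomal hydroxylase that starts breakdown of phytanic acid, at 81.1 ± 33.3 TPM in KO (SD, n = 2), 66.0 ± 4.48 TPM in G77S (n = 3) and 114 ± 37.0 TPM in WT (n = 3). Next in WT came Alkbh7, a mitochondrial ALKBH protein, at 62.2 ± 2.77 TPM in KO, 75.6 ± 8.49 TPM in G77S and 49.9 ± 10.9 TPM in WT, and Tyw5, which hydroxylates the wybutosine base of transfer RNA, at 49.7 ± 0.219 TPM in KO, 53.4 ± 9.5 TPM in G77S and 47.9 ± 4.87 TPM in WT. Alkbh3, a repair enzyme for alkylated DNA and RNA, was close to Tyw5 at 51.1 ± 5.95 TPM in KO, 58.8 ± 6.82 TPM in G77S and 47.3 ± 8.77 TPM in WT. Phyh lay above Alkbh7 in all 3 WT libraries and in KO replicate 1, whereas Alkbh7 lay above Phyh in all 3 G77S libraries and in KO replicate 2. The neighbours Alkbh7, Tyw5 and Alkbh3 differed in WT by less than their spread. The ALKBH and FTO class carried 214 to 235 TPM in KO, 216 to 266 TPM in G77S and 180 to 215 TPM in WT, more in each library than the 16 demethylases together, which carried 26.6 to 33.2 TPM in KO, 55.4 to 67.0 TPM in G77S and 27.2 to 56.7 TPM in WT.

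**Figure D1:**
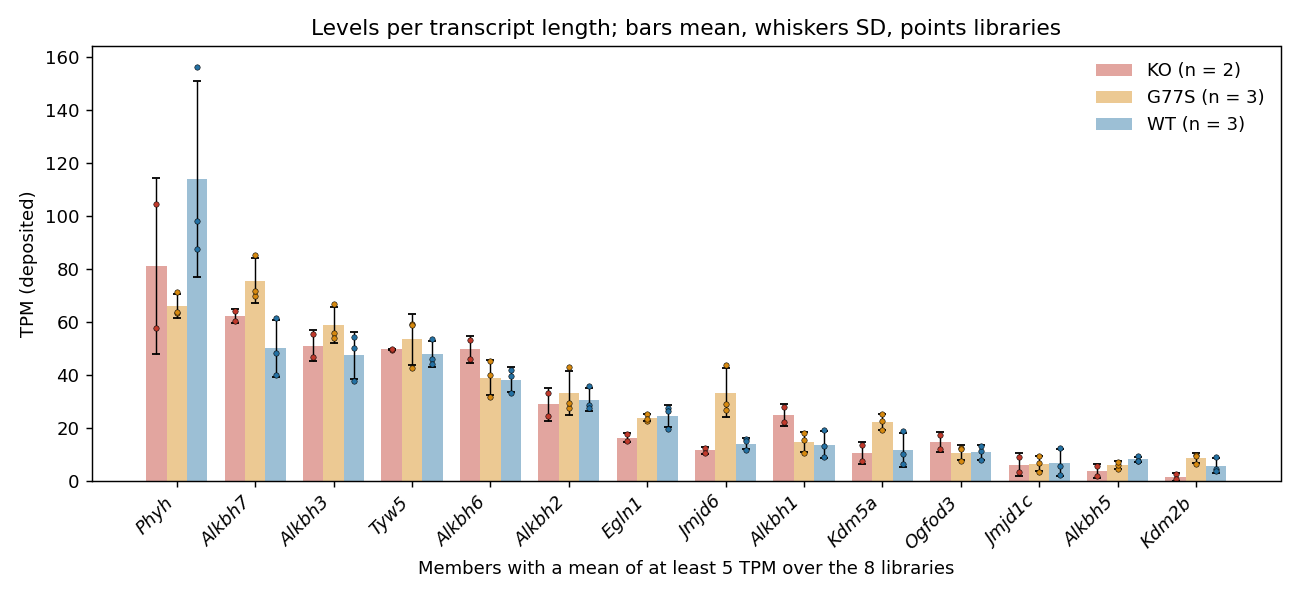
Deposited TPM (vertical axis, linear) of the 14 genes with a mean of at least 5 TPM over the 8 libraries, for KO, G77S and WT from left to right within each gene. Bars are means, whiskers SD and points libraries; Phyh has the highest mean in KO and WT and Alkbh7 in G77S, and for Jmjd6 the 3 G77S libraries at 26.8 to 43.9 TPM lie above all others.

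**Figure D2:**
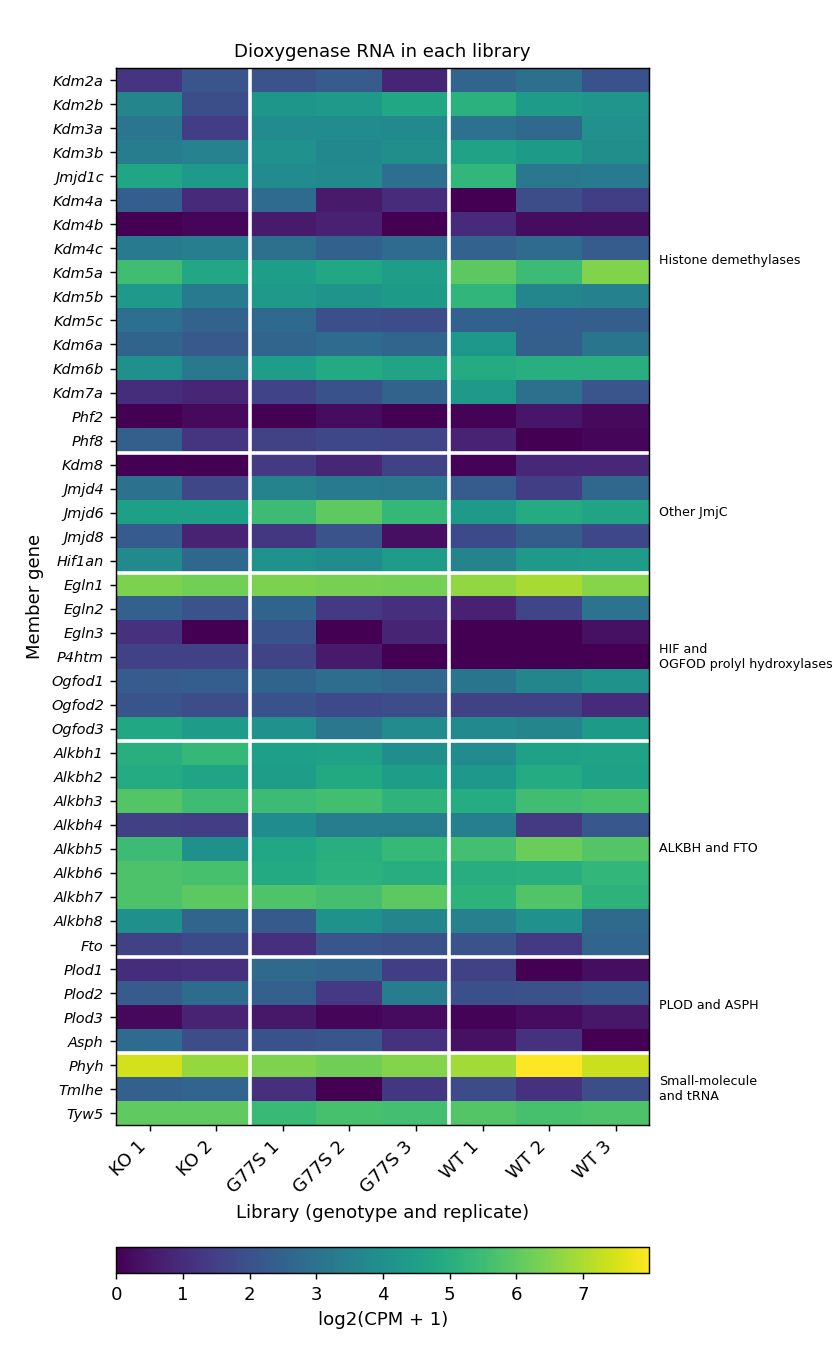
Heatmap of log2(CPM + 1) for all 44 genes (rows, grouped by class) in the 8 libraries (columns: KO, G77S, WT). Phyh and Egln1 are bright in every library, whereas Phf2, Plod3 and Kdm4b are near 0 in every library.

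Of the 42 tested genes, edgeR called 1 in any of the 3 comparisons at an adjusted p under 0.05, although in each comparison a number of genes had groups that did not overlap. In KO against WT, edgeR's quasi-likelihood test with Benjamini-Hochberg adjustment over 13953 genes called 0 higher (0.0788% of all genes tested were called higher) and 0 lower (0.043%). At an unadjusted p under 0.05, 4 were higher (6.24% of all genes) and 7 lower (6.8%). All KO libraries lay above all WT libraries for 12 of the 42 (13.1% of all genes) and below for 9 (12.5%). DESeq2, which called 359 higher and 426 lower of 22958 genes, called P4htm higher and Kdm6b, Kdm7a and Ogfod1 lower, and limma on log2(TPM + 1) called none. The median log2 fold change was 0.05 over the 42 genes and -0.06 over all genes.

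In G77S against WT, the same edgeR test called 0 higher (1.3% of all genes) and 1 lower, Kdm5a (2.09%). At an unadjusted p under 0.05, 3 were higher (10.3%) and 3 lower (9.78%), and the groups did not overlap for 5 above (17.2%) and 7 below (11.8%). DESeq2 called Jmjd6 and P4htm higher and Kdm5a and Phyh lower, out of 791 higher and 875 lower among all genes. limma on log2(TPM + 1) called Jmjd6, Phf8 and Plod1 higher and none lower; on that scale the median of all genes itself stood at 0.23 for G77S against WT and 0.34 for G77S against KO, with 1178 genes called higher and 288 lower in G77S against WT, where edgeR had 182 and 291, and 1543 and 306 in G77S against KO, where edgeR had 246 and 339. The median log2 fold change in the counts was -0.11 over the 42 genes and 0.03 over all genes. In G77S against KO, edgeR called 0 higher (1.76%) and 0 lower (2.43%), with 5 higher (11.0%) and 3 lower (9.74%) at an unadjusted p under 0.05. The groups did not overlap for 13 above (24.9%) and 8 below (20.0%), and the medians were 0.02 over the 42 genes and 0.1 over all genes. DESeq2 called Alkbh4, Jmjd6, Kdm6b and Kdm8 higher and Alkbh6 lower in G77S than in KO, and limma on log2(TPM + 1) called Alkbh4, Jmjd6 and Kdm2b higher. The comparisons of KO and of G77S with WT share the WT libraries.

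**Figure D3:**
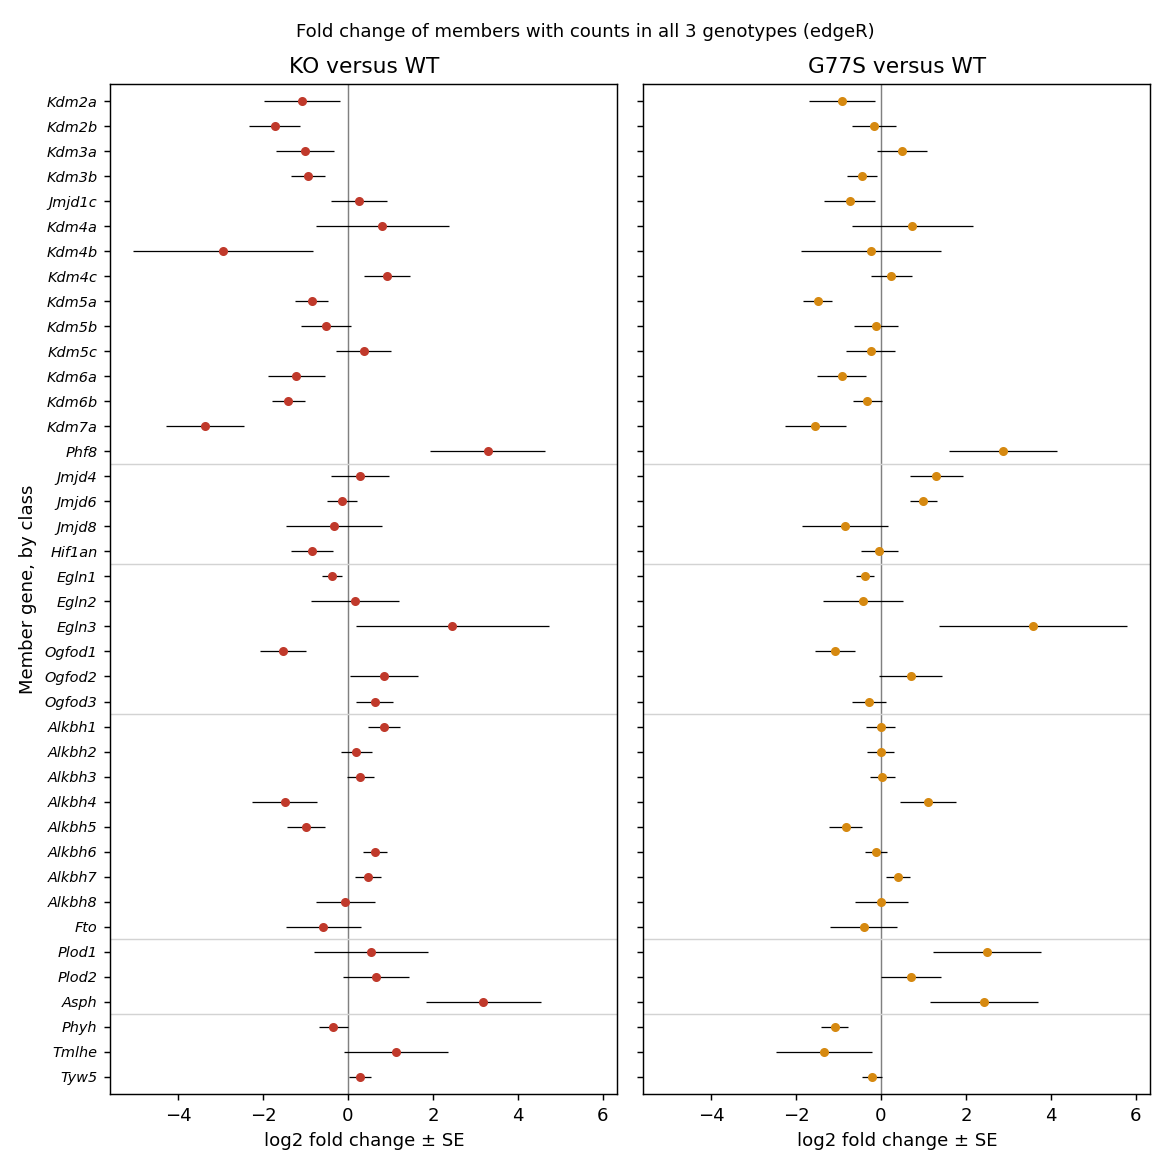
Log2 fold change ± SE (horizontal axis, edgeR) for the 40 tested genes with counts in all 3 genotypes, KO against WT on the left and G77S against WT on the right, ordered by class. For Kdm5a in G77S the point lies at -1.49, and the widest bars belong to genes with few counts such as Egln3 and Kdm4b.

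Among the histone demethylases, Kdm5a removes the lysine methylation that marks active promoters. Its GRCm38 position is chr6:120364124-120444574, plus strand. Kdm5a stood at 45.8 and 25.8 CPM in KO, 21.5, 26.3 and 21.3 CPM in G77S, and 62.3, 43.5 and 87.9 CPM in WT. The 3 G77S libraries lay below the 3 WT libraries, and KO overlapped both. The log2 fold change of G77S against WT was -1.49 (SE 0.35, adjusted p = 0.046, edgeR). The deposited TPM of Kdm5a ran the other way: 7.41 and 13.5 TPM in KO, 19.0, 25.03 and 22.5 TPM in G77S, and 10.2, 6.22 and 18.8 TPM in WT, so that all G77S libraries were above all WT libraries. The effective length that RSEM assigned to the gene, an average over its transcripts weighted by abundance, was 4240 and 1236 bases in KO, 1039, 1116 and 941 bases in G77S, and 5344, 5047 and 3353 bases in WT. G77S libraries thus had fewer Kdm5a reads, assigned to shorter transcripts. With this length as an offset the log2 fold change turned to 0.58 (adjusted p = 0.498), and with limma on log2(TPM + 1) to 0.98 (adjusted p = 0.14). Of 13953 genes, 13 (0.0932%) were below WT in every G77S library by CPM and above WT in every G77S library by TPM, and Kdm5a was the 1 such gene among the 42. The call was lost without WT replicate 1 (adjusted p = 0.0542), without WT replicate 3 (0.133) and without any of the G77S replicates (0.135 to 0.156). It was also lost among the 6 libraries with Y-linked RNA (0.137). Kdm5a shares 251 exon bases with Ccdc77 on the opposite strand, and the labels give no strand-specific counting. Ccdc77 stood at 46.1 and 56.8 CPM in KO, 51.4, 32.0 and 59.4 CPM in G77S, and 60.6, 96.4 and 96.3 CPM in WT (G77S against WT adjusted p = 0.164); its part in the Kdm5a counts was not tested.

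**Figure D4:**
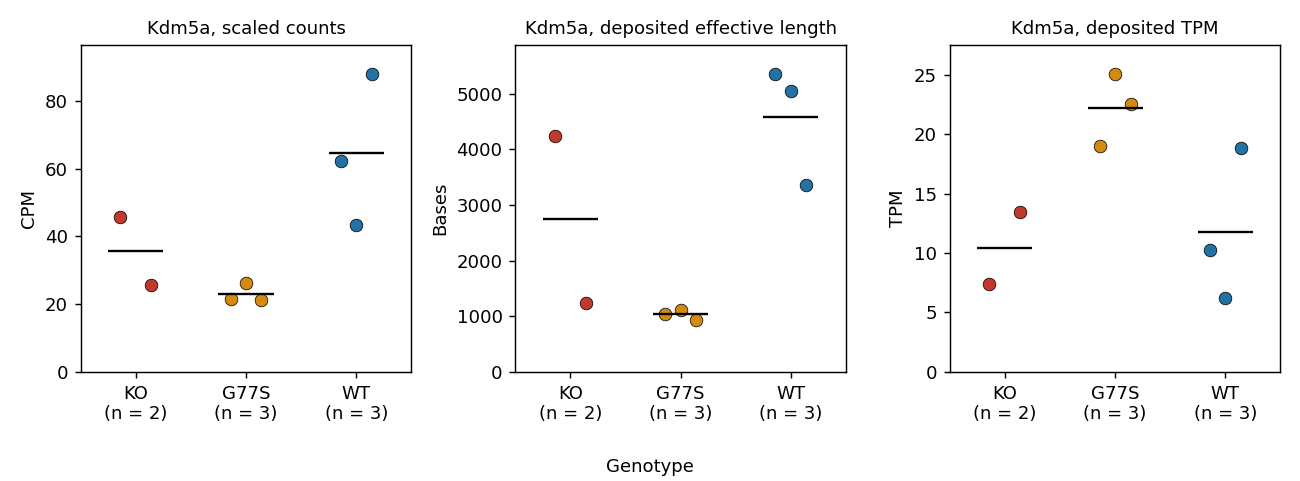
Kdm5a by library as TMM-scaled CPM (left), deposited effective length in bases (middle) and deposited TPM (right), for KO (n = 2), G77S (n = 3) and WT (n = 3); lines mark means. G77S lies below WT in CPM and in length, and above WT in TPM.

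A change of assigned length of this size was uncommon. The mean effective length in G77S was under 1/2 of that in WT for 142 of 13953 genes (1.02%), among them Kdm5a and Kdm2a, a demethylase with a CpG-binding zinc finger. Kdm2a was assigned 8287 and 8335 bases in KO, 2300, 3199 and 1417 bases in G77S, and 6811, 4558 and 6029 bases in WT. Its level was low, at 0.781 to 3.94 CPM in G77S and 3.06 to 6.75 CPM in WT. The tests on counts were made without a length offset, so for Kdm2a too a read count and a number of transcripts are different measures.

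Kdm7a, which demethylates repressive histone marks, stood at 1.06 and 0.795 CPM in KO, 2.03, 3.06 and 4.86 CPM in G77S, and 18.9, 6.65 and 3.34 CPM in WT. Both KO libraries lay below all others, with a log2 fold change against WT of -3.37 (SE 0.92, adjusted p = 0.17), and G77S overlapped WT (-1.54, SE 0.72, adjusted p = 0.267). Kdm2b, a relative of Kdm2a that recruits Polycomb complexes to CpG islands, stood at 11.46 and 2.75 CPM in KO, 17.9, 19.0 and 26.3 CPM in G77S, and 33.2, 20.2 and 16.9 CPM in WT. It was thus lowest in the 2 KO libraries, at -1.72 against WT (SE 0.60, adjusted p = 0.257), and at 1.57 in G77S against KO (SE 0.60, adjusted p = 0.173). It shares 627 exon bases with Rnf34 on the opposite strand. Kdm6b, which removes Polycomb's histone mark and is described here after its values were seen, stood at 15.2 and 8.16 CPM in KO, 21.1, 28.5 and 24.2 CPM in G77S, and 28.9, 31.6 and 31.6 CPM in WT. The 3 genotypes did not overlap for Kdm6b, with -1.4 in KO against WT (SE 0.39, adjusted p = 0.179).

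Kdm4c stood at 8.56 and 9.75 CPM in KO, 6.72, 4.56 and 5.90 CPM in G77S, and 4.68, 5.86 and 4.03 CPM in WT, with KO above WT (0.92, SE 0.53, adjusted p = 0.498). Jmjd1c, a relative of the Kdm3 demethylases, stood at 25.5 and 18.4 CPM in KO, 13.5, 13.2 and 6.51 CPM in G77S, and 38.2, 8.24 and 8.66 CPM in WT, so the WT libraries spread further than the distance between the mutant groups (G77S against KO -0.99, SE 0.66, adjusted p = 0.433; 0.13 with limma on log2(TPM + 1)). Kdm3a, a demethylase that HIF induces, stood at 7.79 and 1.75 CPM in KO, 13.4, 13.5 and 13.2 CPM in G77S, and 7.14, 5.76 and 15.6 CPM in WT. Its G77S libraries lay above its KO libraries and inside the WT range (G77S against KO 1.49, SE 0.70, adjusted p = 0.254). Across the class, 10 of 15 tested demethylases had a negative fold change in KO against WT (52.7% of all genes), with a median of -0.94, and 11 of 15 in G77S (48.2% of all genes), with a median of -0.24. For G77S this direction turned to a median of 0.27 with the effective length offset and 0.26 with limma on log2(TPM + 1), where all genes stood at 0.23; for KO it stayed negative at -0.68 and -0.29. Single libraries moved these medians: in G77S the median was -0.01, with 7 positive and 7 negative, without WT replicate 1, -0.38 without WT replicate 2, -0.42 without WT replicate 3 and -0.53 without G77S replicate 1, and in KO it was -0.5 without KO replicate 2 and -0.62 without WT replicate 1. The class has long transcripts (median effective length 3245 bases, against 1658 over all genes tested). The direction was not particular to it. Of 20 histone lysine methyltransferases and partners (median 2754 bases), 14 were negative in KO and 13 in G77S, with medians of -0.35 and -0.24. With all genes ranked by effective length into 3 equal bins, the bin above 2258 bases had a median log2 fold change of -0.29 in KO, and 14 of the 21 dioxygenases in it were negative. The bin below 1188 bases had 0.11, and 9 of its 9 dioxygenases were positive. The part of transcript length in these medians was not tested.

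The X-linked demethylases are Kdm5c, Kdm6a and Phf8, and WT replicate 1 and G77S replicate 1 lack Y-linked RNA. Kdm6a, which escapes X inactivation, stood at 4.96 and 3.71 CPM in KO, 5.04, 5.92 and 5.03 CPM in G77S, and 18.1, 4.37 and 7.69 CPM in WT, so WT replicate 1 was the highest and the other 7 stood at 3.71 to 7.69 CPM. Kdm5c, another escape gene, stood at 6.61 and 4.82 CPM in KO, 5.67, 2.86 and 2.69 CPM in G77S, and 4.63, 4.27 and 4.40 CPM in WT. Phf8, at 4.31 and 1.32 CPM in KO, 1.89, 2.31 and 2.17 CPM in G77S, and 0.725, 0 and 0.0927 CPM in WT, lay above WT in both mutant groups (3.29, SE 1.35, adjusted p = 0.338 in KO; 2.88, SE 1.27, adjusted p = 0.234 in G77S). In WT replicates 2 and 3 Phf8 stayed under the level of 3 counts. The remaining demethylases Kdm3b, Kdm4a, Kdm4b and Kdm5b had log2 fold changes of -2.93 to 0.81 in KO and -0.45 to 0.74 in G77S, none called, and for Kdm4b the 2 counts in KO against 24 in WT make WT 8.67-fold higher than KO (95% counting interval 2.15 to 75.7).

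Among the other JmjC proteins, Jmjd6, a lysyl hydroxylase that modifies splicing factors, stood at 22.4 and 21.7 CPM in KO, 43.6, 63.1 and 39.0 CPM in G77S, and 19.2, 29.5 and 24.2 CPM in WT. All 3 G77S libraries lay above the other 5. Log2 fold changes were 1.0 against WT (SE 0.31, adjusted p = 0.105) and 1.14 against KO (SE 0.36, adjusted p = 0.108) with edgeR. Both passed with DESeq2 (adjusted p = 0.0152 and 0.0146) and with limma on log2(TPM + 1) (0.0312 and 0.0191). No edgeR alternative called either difference. Jmjd6 shares 172 exon bases with Mettl23 on the opposite strand, which stood at 13.1 to 21.5 CPM in G77S and 12.4 to 41.9 CPM in WT. Jmjd4, which hydroxylates a translation termination factor, stood at 6.85 and 2.28 CPM in KO, 10.8, 8.71 and 8.24 CPM in G77S, and 3.96, 1.79 and 5.47 CPM in WT, with G77S above both other groups (against WT 1.3, SE 0.62, adjusted p = 0.274). It shares 307 exon bases with Snap47 on the opposite strand.

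Hif1an, the asparaginyl hydroxylase that blocks the HIF transactivation domain, stood at 13.1 and 5.56 CPM in KO, 15.7, 13.7 and 19.7 CPM in G77S, and 11.0, 19.0 and 20.4 CPM in WT, and both mutant groups overlapped WT. Kdm8, a JmjC oxygenase needed in mouse development, had 0 counts in KO, 1.54, 0.816 and 1.996 CPM in G77S, and 0.0558, 0.893 and 0.834 CPM in WT. Pooled over libraries and against 3 counts over the KO group, G77S was at least 16.8-fold higher than KO. KO was at least 6.74-fold lower than WT in the same way, although WT replicate 1 stood at 0.0558 CPM. Neither difference was called (adjusted p = 0.0957 and 0.255). Among the alternatives, only DESeq2 (0.00824) and the fit without WT replicate 1 (0.0475) called G77S against KO. Jmjd8 stood at 0.26 to 4.07 CPM over the 8 libraries with no separation of the groups. It shares 1084 exon bases with Stub1 on the opposite strand, which averaged 109 CPM over the 8 libraries against 2.3 CPM for Jmjd8. The part of Stub1 in the Jmjd8 counts was not tested.

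In the oxygen-sensing branch, Egln1, the main HIF prolyl hydroxylase, stood at 84.4 and 77.9 CPM in KO, 84.4, 80.9 and 79.7 CPM in G77S, and 104, 122 and 92.0 CPM in WT. Both mutant groups lay below WT by a small step that was not called (KO -0.38, SE 0.24, adjusted p = 0.545; G77S -0.37, SE 0.21, adjusted p = 0.367). In TPM the G77S libraries, at 22.7, 25.2 and 23.2, fell within the WT range of 19.7 to 27.3, and the KO libraries stood at 17.5 and 15.0. Egln2, a nuclear relative, stood at 4.43 and 3.13 CPM in KO, 4.90, 1.496 and 1.13 CPM in G77S, and 0.669, 2.18 and 7.18 CPM in WT, with full overlap. Egln3, whose promoter is shown above, was at 1.18 and 0 CPM in KO, 3.08, 0 and 0.781 CPM in G77S, and 0, 0 and 0.278 CPM in WT, too few counts to rank the groups.

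P4htm encodes a transmembrane prolyl hydroxylase of the endoplasmic reticulum that also acts on HIF. Its position is chr9:108578862-108597667, minus strand. It stood at 2.01 and 1.91 CPM in KO, 2.10, 0.476 and 0 CPM in G77S, and 0 in all 3 WT libraries. Pooled over libraries, the 70 counts in KO were at least 32.3-fold above WT, against 3 counts over the WT group. The 37 counts in G77S were at least 15.1-fold above WT in the same way. That pooled bound does not hold for each G77S library, since replicate 3 was at 0 as in WT. With edgeR neither group's difference from WT was called (adjusted p = 0.21 in KO and 0.132 in G77S). Both passed with no filter on low counts (0.0323 and 0.042) and with DESeq2 (0.0299 and 0.0342), and in no other alternative.

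Ogfod1, which hydroxylates a ribosomal protein, stood at 3.96 and 4.19 CPM in KO, 4.90, 6.19 and 5.55 CPM in G77S, and 7.64, 11.8 and 15.9 CPM in WT. Both mutant groups lay below WT in CPM, by -1.53 in KO (SE 0.54, adjusted p = 0.264) and -1.09 in G77S (SE 0.47, adjusted p = 0.223). Its assigned length was 429 and 932 bases in KO, 1416, 1655 and 3173 bases in G77S, and 4272, 1347 and 1748 bases in WT, and with the length offset the KO value was 0.05 (adjusted p = 0.994). Ogfod3 stood at 25.8 and 20.0 CPM in KO, 15.3, 7.89 and 13.4 CPM in G77S, and 13.1, 11.52 and 19.6 CPM in WT, with KO above both others (G77S against KO -0.91, SE 0.44, adjusted p = 0.264). Ogfod2 stood at 2.70 to 3.25 CPM in KO, 2.38 to 3.01 CPM in G77S and 0.973 to 2.01 CPM in WT, above WT in both mutant groups and not called (adjusted p = 0.727 and 0.656).

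Among the ALKBH enzymes, Alkbh6 stood at 52.8 and 50.1 CPM in KO, 28.3, 33.2 and 30.4 CPM in G77S, and 30.2, 31.0 and 38.0 CPM in WT. Alkbh1, a demethylase of transfer RNA, stood at 32.2 and 39.2 CPM in KO, 21.6, 22.7 and 14.8 CPM in G77S, and 13.4, 22.9 and 23.2 CPM in WT. For both genes the KO libraries lay above the other 6, with log2 fold changes against WT of 0.64 (SE 0.29, adjusted p = 0.389) and 0.85 (SE 0.38, adjusted p = 0.383). Alkbh1 shares 122 exon bases with Slirp on the opposite strand. Alkbh4, reported to act on actin, stood at 1.83 and 1.75 CPM in KO, 13.9, 9.52 and 9.28 CPM in G77S, and 9.98, 1.59 and 3.48 CPM in WT. G77S lay above KO by 2.6 (SE 0.81, adjusted p = 0.105), and WT, at 1.59 to 9.98 CPM, overlapped both. That difference passed in 5 of 17 alternatives. Among them were DESeq2 (adjusted p = 0.00928), the 2 mutant groups fitted alone (0.0271) and the fit without WT replicate 1 (0.0373).

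Alkbh5 and Fto are the erasers of methyladenosine in RNA, and per length Alkbh5 was the higher of the pair in WT, at 8.10 ± 0.980 TPM against 1.01 ± 0.766 TPM for Fto (SD, n = 3). Alkbh5 stood at 43.5 and 15.0 CPM in KO, 25.9, 32.1 and 40.0 CPM in G77S, and 47.3, 70.1 and 57.1 CPM in WT, with all mutant libraries below WT (KO -0.99, SE 0.45, adjusted p = 0.383; G77S -0.83, SE 0.39, adjusted p = 0.269). Fto stood at 1.12 to 5.10 CPM over the 8 libraries with overlap of all groups. Of the repair enzymes, Alkbh3 stood at 56.8 and 44.6 CPM in KO, 43.9, 47.0 and 35.9 CPM in G77S, and 29.7, 45.1 and 49.6 CPM in WT, and Alkbh2 at 18.1 to 29.3 CPM over all libraries. Alkbh7 stood at 53.3 and 62.6 CPM in KO, 54.2, 48.2 and 61.3 CPM in G77S, and 34.6, 55.5 and 34.5 CPM in WT. These 3 and Alkbh8, which modifies the wobble base of transfer RNA, had log2 fold changes of -0.06 to 0.48 in KO and -0.0029 to 0.4 in G77S.

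In the secretory pathway, all 3 tested genes had positive fold changes in both mutant groups, at low level and without a call. Without G77S replicate 3, 2 were positive and 1, Plod2, negative in G77S. Asph, which hydroxylates EGF-like domains, stood at 5.91 and 2.70 CPM in KO, 3.01, 3.40 and 1.22 CPM in G77S, and 0.279, 1.19 and 0 CPM in WT, above WT in both (KO 3.19, SE 1.36, adjusted p = 0.359; G77S 2.43, SE 1.27, adjusted p = 0.317). Plod1, a collagen lysyl hydroxylase, stood at 1.06 and 1.11 CPM in KO, 5.81, 5.03 and 1.82 CPM in G77S, and 1.95, 0 and 0.232 CPM in WT. Plod2, its relative for collagen ends, stood at 3.90 and 6.04 CPM in KO, 4.41, 1.496 and 9.46 CPM in G77S, and 2.90, 2.98 and 3.57 CPM in WT. Of 8 markers of primitive endoderm, the lineage that lays down basement membrane, 8 were detected in KO, 7 in G77S (Gata4 at 0) and 5 in WT (Gata4, Sox17 and Sox7 at 0), while their sum overlapped between genotypes at 1019 to 1486 CPM in KO, 571 to 1159 CPM in G77S and 1132 to 1459 CPM in WT, most of it from Dab2. In both KO libraries every marker but Dab2 lay above all WT libraries, without a call. Lama1 stood at 18.48 and 19.13 CPM in KO against 1.673 to 9.73 CPM in WT (adjusted p = 0.278, edgeR). Gata6, at 26.03 to 28.16 CPM in the mutant libraries, lay above WT, at 17.77 to 23.53 CPM (0.606 in KO and 0.472 in G77S). Pdgfra also lay above WT in both mutant groups (0.156 and 0.0514). In G77S, Dab2, Lama1, Sox17 and Sox7 overlapped WT. The part of these markers in the values of Asph, P4htm, P4ha1 and Col4a1 was not tested. Asph also shares 2302 exon bases with Clvs1 on the opposite strand.

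Phyh, at chr2:4919019-4938730 on the plus strand, stood at 175 and 105 CPM in KO, 86.4, 75.0 and 89.4 CPM in G77S, and 116, 253 and 163 CPM in WT. All G77S libraries lay below all others, at -1.09 against WT (SE 0.31, adjusted p = 0.08). The call was made without WT replicate 1 (0.0314), without a filter (0.00393) and with DESeq2 (0.0173), and in no other alternative. Tyw5 stood at 65.2 and 65.3 CPM in KO, 41.6, 49.3 and 47.7 CPM in G77S, and 56.8, 50.04 and 53.7 CPM in WT. The 3 groups of Tyw5 were separate in CPM by small steps (KO 0.29, SE 0.26, adjusted p = 0.711; G77S -0.21, SE 0.23, adjusted p = 0.676) and overlapped in TPM, and the gene shares 718 exon bases with Maip1 on the opposite strand. Tmlhe, the first enzyme of carnitine synthesis, stood at 4.49 and 5.14 CPM in KO, 1.12, 0 and 1.48 CPM in G77S, and 2.62, 1.19 and 2.73 CPM in WT.

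**Figure D5:**
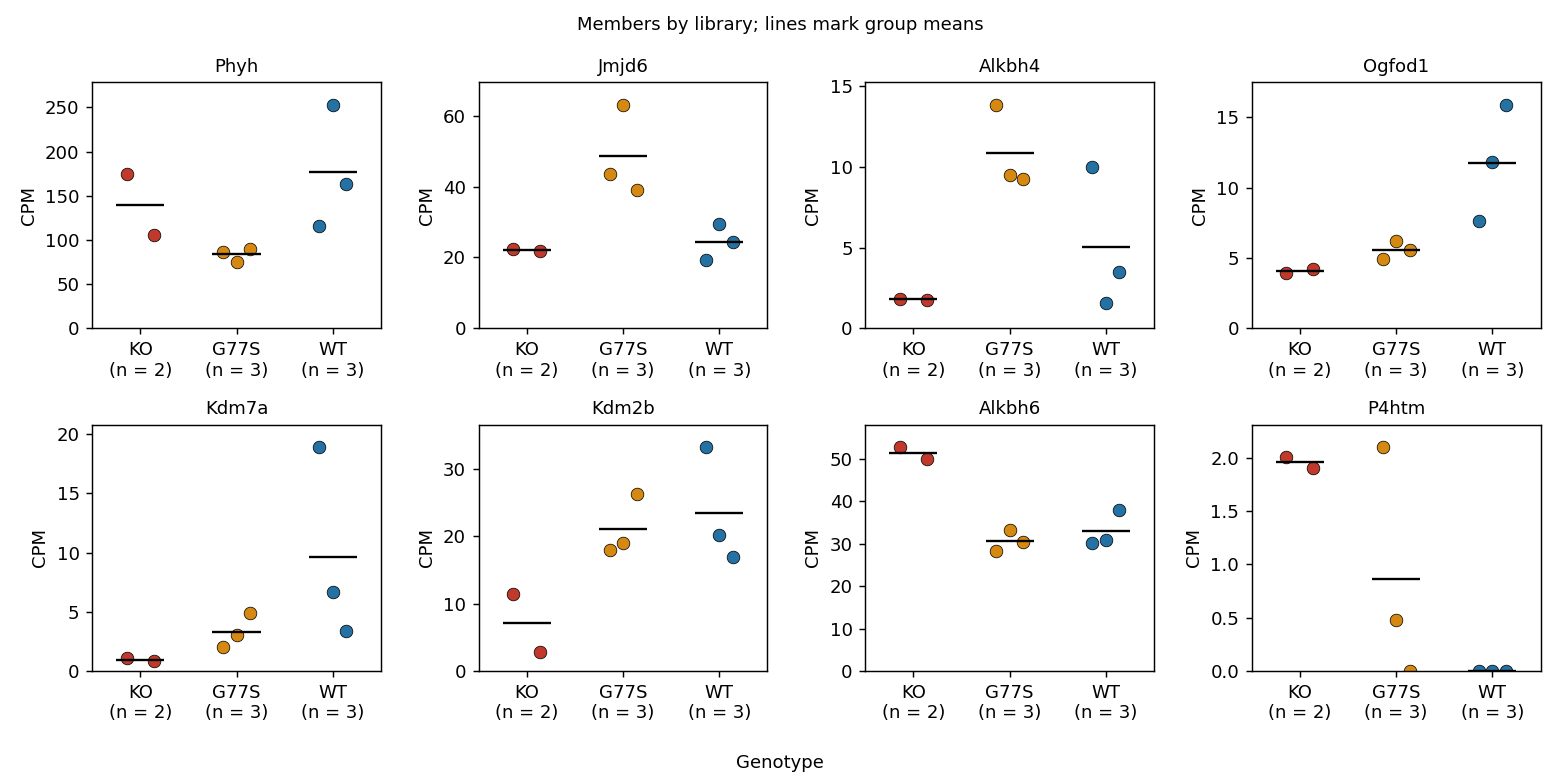
TMM-scaled CPM (vertical axes, each from 0) of Phyh, Jmjd6, Alkbh4, Ogfod1, Kdm7a, Kdm2b, Alkbh6 and P4htm in the KO (n = 2), G77S (n = 3) and WT (n = 3) libraries; lines mark means. Phyh is lowest and Jmjd6 highest in G77S, Alkbh6 is highest in KO, and P4htm is at 0 in all WT libraries; none of these passed the edgeR threshold.

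Related genes were followed in 6 lists chosen by function. Of 22 other dioxygenases, 16 were tested, and P4ha1, the catalytic subunit of collagen prolyl hydroxylase, was the 1 called in KO or in G77S against WT. P4ha1 stood at 16.1 and 10.8 CPM in KO, 9.87, 11.4 and 4.42 CPM in G77S, and 0, 0 and 0.139 CPM in WT. It rose in both mutant groups, with a KO to WT ratio of 220 (95% counting interval 74.9 to 1071, adjusted p = 0.0261) and a G77S to WT ratio of 147 (49.7 to 714, adjusted p = 0.00515). The G77S call held in all 17 alternatives, at an adjusted p of at most 0.0298, while the KO call was lost in 7 of 17, among them the fits without KO replicate 2 (0.112), WT replicate 2 (0.0758), G77S replicate 1 (0.0571) and G77S replicate 2 (0.0598). Of 11 collagen genes and folding factors, 6 were tested and Col4a1, a basement membrane collagen that is also one of the primitive endoderm markers, was called higher in G77S: it stood at 14.6 and 6.15 CPM in KO, 5.88, 3.54 and 1.48 CPM in G77S, and 0.279, 0 and 0 CPM in WT (G77S 5.09, SE 1.20, adjusted p = 0.0478, up to 0.154 when single libraries were left out, lost without any KO or G77S replicate and without WT replicate 2 or 3). Ppib and P4hb, which assist collagen folding and were the most abundant of that list, stood at 441 to 453 CPM and 64.9 to 106 CPM in KO, 311 to 408 CPM and 123 to 173 CPM in G77S, and 307 to 532 CPM and 138 to 146 CPM in WT. In G77S against KO no other dioxygenase was called, and Jarid2, a JmjC protein without demethylase activity, stood at 54.3 to 69.6 CPM in G77S and 67.1 to 82.1 CPM in KO, and Hspbap1 at 42.5 to 55.6 CPM in G77S and 29.5 to 41.2 CPM in KO.

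Enzymes that make or use 2-oxoglutarate, succinate and fumarate, the co-substrate and inhibitors of the dioxygenases, were all 24 tested. None was called in KO against WT, with 15 positive and a median of 0.28. In G77S, Sdhb, the iron-sulfur subunit of succinate dehydrogenase, fell: it stood at 1139 and 1329 CPM in KO, 365, 367 and 435 CPM in G77S, and 570, 1164 and 937 CPM in WT, with -1.19 against WT (SE 0.25, adjusted p = 0.032) and -1.67 against KO (SE 0.28, adjusted p = 0.0102). Suclg1, a subunit of succinyl-CoA ligase, stood at 1149 and 1296 CPM in KO, 623, 474 and 541 CPM in G77S, and 804, 1222 and 1018 CPM in WT, with -0.89 against WT (SE 0.21, adjusted p = 0.0438) and -1.16 against KO (SE 0.22, adjusted p = 0.0198). Idh2, which makes 2-oxoglutarate in mitochondria, stood at 494 and 304 CPM in KO, 169, 103 and 105 CPM in G77S, and 150, 183 and 123 CPM in WT, and was lower in G77S than in KO (-1.67, SE 0.31, adjusted p = 0.0163) while overlapping WT. Leaving out single libraries gave adjusted p-values of up to 0.147 for Sdhb and 0.2 for Suclg1 against WT, each lost without WT replicate 2, WT replicate 3 or any G77S replicate, Suclg1 also without either KO replicate. Against KO, Sdhb was lost without KO replicate 2 (0.0679) or G77S replicate 2 (0.0519), and Idh2 without KO replicate 1 (0.112), G77S replicate 2 (0.0814) or G77S replicate 3 (0.0685). Suclg1 against KO was lost without either KO replicate (0.0644 and 0.116), G77S replicate 2 (0.0953) or G77S replicate 3 (0.0746).

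No gene was called in any comparison among 20 tested HIF factors and targets, 20 histone lysine methyltransferases and partners, or 10 writers and readers of methyladenosine, by edgeR. Bnip3, a mitophagy receptor and HIF target, stood at 1125 and 1317 CPM in KO, 809, 781 and 1034 CPM in G77S, and 764, 2554 and 2982 CPM in WT, with WT replicate 1 below all mutant libraries and the other WT replicates above them. Aldoa, a glycolytic HIF target, stood at 404 to 596 CPM in KO, 454 to 776 CPM in G77S and 496 to 528 CPM in WT. Vegfa, from the same list and at low level, stood at 3.43 and 3.34 CPM in KO, 0.28, 0.136 and 0 CPM in G77S, and 2.18, 2.09 and 3.43 CPM in WT. G77S lay below WT (-4.1, SE 1.12, adjusted p = 0.0745) and below KO (-4.5, SE 1.18, adjusted p = 0.0615). Bnip3l, of the same list and far more abundant, went the other way. It stood at 167.5 and 179.2 CPM in KO, 194 to 239 CPM in G77S and 94.7 to 154 CPM in WT. It was not called against WT (adjusted p = 0.533 in KO and 0.0887 in G77S). Of the 20 tested, 13 were negative (48.2% of all genes) and 7 positive in G77S against WT. All G77S libraries lay above all WT libraries for 3 of the 20 and below for 4. Eed, a core subunit of the Polycomb methyltransferase, stood at 281 and 359 CPM in KO, 259, 258 and 235 CPM in G77S, and 143, 197 and 165 CPM in WT, above WT in both mutant groups (adjusted p = 0.138 and 0.146). Suz12, its partner subunit, stood at 55.9 to 60.6 CPM in KO, 32.6 to 48.5 CPM in G77S and 46.1 to 113 CPM in WT. Wtap, of the methyladenosine writer complex, stood at 762 and 520 CPM in KO, 987, 804 and 773 CPM in G77S, and 1438, 1005 and 1403 CPM in WT, below WT in both (adjusted p = 0.155 and 0.169). Ythdf2, a reader that promotes decay of methylated RNA, stood at 83.0 and 101 CPM in KO, 193, 124 and 149 CPM in G77S, and 86.9, 75.6 and 98.3 CPM in WT, above WT in G77S (0.84, SE 0.24, adjusted p = 0.0803).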

How the data were processed

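Blastocysts of 3 Isca2 genotypes (2 KO, 3 G77S and 3 WT libraries) were profiled by RNA sequencing after full-length cDNA amplification, per the labels' protocols. The deposited tables hold RSEM estimated counts (expected counts), TPM and effective length per gene, 1 table per library, per the file headers. The TPM are as deposited. The tools that the submitters' processing notes list are RSEM 1.3.1, STAR 2.6.1c, DESeq2 1.42.1 and Trim Galore 0.4.5, with mm10 (GRCm38) as the build. The annotation release is not given in the sources used here.

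Symbols came from GENCODE M21, which matched 55230 of 55471 gene identifiers (99.6%). Expected counts were rounded and fitted in edgeR 4.0.16 (R 4.3.3) after TMM scaling and a low-count filter by group (13953 genes kept). The model had 1 mean per genotype over all 8 libraries, the quasi-likelihood F test and calls at a Benjamini-Hochberg adjusted p under 0.05 over all genes. Unless another tool is named, adjusted p-values are from this fit. The SE is the fold change divided by the square root of F. The common biological coefficient of variation was 0.65. Fold bounds use 3 counts over a group, ratios with 1 to 3 counts have 95% counting intervals, and these cover counting error only since no molecular identifiers are described. The steps were tested on simulated data.

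The 44 genes and all lists were chosen with earlier results of these data known. Per-library values are given for called genes, for the 3 largest fold changes in each direction and comparison among genes whose higher group averages 5 CPM or more, and for the 2 genes with the highest WT TPM per class. Other genes described singly were chosen after their values were seen. These were P4htm, Kdm8, Phf8, Asph, Kdm6b, Egln2, Egln3, Alkbh5, Tmlhe, Kdm2a, Ogfod2, and the X-linked Kdm5c and Kdm6a. From the HIF list they were Vegfa and Bnip3l. The fits were repeated with RLE scaling, a replicate block, an effective length offset, only the 2 groups of a comparison, no low-count filter or one at 5 CPM in 2 libraries, the 6 libraries with at least 5 CPM of Y-linked RNA, DESeq2 1.42.0, limma 3.58.1 on log2(TPM + 1), and each library left out.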

Additional observations from a re-analysis of the deposited data

Results flagged for a closer look

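The change against WT differed between G77S and KO, by the test of G77S against KO itself (edgeR, Benjamini-Hochberg adjusted over all genes), for 3 genes of 2-oxoglutarate and succinate metabolism. Sdhb had a log2 fold change of -1.67 in G77S against KO (adjusted p = 0.0102), with all 3 G77S libraries below both KO libraries. Idh2 had -1.67 (adjusted p = 0.0163), with all 3 G77S libraries below both KO libraries. Suclg1 had -1.16 (adjusted p = 0.0198), with all 3 G77S libraries below both KO libraries. These 3 were of 24 genes tested in that list, and 2.43% of all genes were called lower in G77S than in KO. Each of the 3 calls was lost without G77S replicate 2. The G77S libraries also had shorter fragments than all others, so genotype and library preparation cannot be told apart. No dioxygenase of the 42 tested passed the test of G77S against KO.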

How the results depend on the processing

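Of 723 repeats of single-gene fold changes under the alternatives, 644 kept their direction and side of the threshold, 49 lost and 25 gained a call, and 5 changed direction. Those 5 were Kdm5a in G77S against WT (0.58 with the effective length offset and 0.98 with limma on log2(TPM + 1)), Ogfod1 in KO against WT (0.05 and 0.04 under the same alternatives), and Jmjd1c in G77S against KO (0.13 with limma only). Both alternatives use the assigned transcript length, and limma on log2(TPM + 1) also changes the scale and the model. Counts of called dioxygenases changed as follows. In KO against WT, no filter gave 1 higher and 1 lower, and DESeq2 gave 1 and 3, against 0 and 0. In G77S against WT, against 0 higher and 1 lower, no filter gave 1 and 2, DESeq2 2 and 2, limma 3 and 0, and the effective length offset and the libraries with Y-linked RNA 0 lower; leaving out a library gave 0 to 1 lower. In G77S against KO, against 0 and 0, no filter gave 1 higher, only the 2 groups compared 1 higher, DESeq2 4 higher and 1 lower, limma 3 higher, and leaving out a library 0 to 2 higher. With a replicate block 0 were called lower in G77S against WT (Kdm5a adjusted p = 0.0689), and same-numbered libraries did not deviate together (correlations of deviations -0.044 to 0.099 over 7 pairs). The block also ended the KO call of P4ha1 (0.0839) and the call of Suclg1 against WT (0.0697). The cause of the changes under any alternative was not tested. The median of the 42 genes stayed between -0.5 and 0.31 in all comparisons and alternatives. Over all genes, KO against WT gave 11 higher and 6 lower, against 285 and 262 with no filter, 34 and 26 with the stricter filter, 359 and 426 with DESeq2, 57 and 38 with limma, 4 and 4 with the block, 8 and 3 with the 2 groups alone, 21 and 11 with the libraries with Y-linked RNA, 11 and 10 with the length offset, and 0 to 29 and 0 to 15 when leaving out a library. G77S against WT gave 182 and 291, against 598 and 738 with no filter, 325 and 421 with the stricter filter, 791 and 875 with DESeq2, 1178 and 288 with limma, 326 and 340 with the 2 groups alone, 101 and 213 with the libraries with Y-linked RNA, and 31 to 263 and 51 to 375 when leaving out a library. G77S against KO gave 246 and 339, against 619 and 792 with no filter, 391 and 455 with the stricter filter, 933 and 881 with DESeq2, 1543 and 306 with limma, 489 and 520 with the 2 groups alone, 153 and 333 with the libraries with Y-linked RNA, and 57 to 420 and 91 to 529 when leaving out a library. Depth limits the low genes: 3 counts equal 0.139 to 0.298 CPM.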
